A study of Mus musculus with 10 samples.

Results

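The nucleolar ribosome biogenesis genes described here are 46 genes encoding RNA polymerase I subunits, small nucleolar ribonucleoprotein (snoRNP) proteins and pre-ribosome factors, chosen by name as known MYC targets from 18193 genes that the array annotation names. With days of doxycycline (Dox), 16 of the 46 genes fell in *Max*-null embryonic stem cells (ESCs) grown in leukaemia inhibitory factor (LIF) and serum, and 0 rose, where 5.33% of all 18193 genes fell. Without the second of the untreated arrays in this medium, 0 of the 46 passed the test. Each gene was read from its brightest probe set by the mean of all 10 arrays. These genes held 94 probe sets, of 45037 on the array, and every one of the 46 had a value on every array.

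RNA was measured on 10 Affymetrix Mouse Genome arrays, and the values are log2 values from robust multi-array analysis (RMA). *Max*-null ESCs are male mouse ESCs of strain 129SV in which both copies of endogenous *Max* are disrupted. They live on a *Max* cDNA in a tetracycline-off system, which Dox at 1 µg/ml switches off, so the untreated arrays also come from cells that lack endogenous *Max*. In LIF+serum, 1 set of arrays held Dox 1, 2, 3 and 4 d with an untreated array, and the other held Dox 6 and 8 d with a second untreated array. In 2i+LIF, a medium with inhibitors of the kinases MEK and GSK3β, Dox 6 d was measured beside an untreated array, and the label of that untreated array gives 6 d in 2i. There was 1 array per Dox time, and no source states whether the untreated arrays in LIF+serum are of separate cultures. The p-values therefore cover the spread between these arrays alone, which may be technical.

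In the nucleolus, RNA polymerase I transcribes the ribosomal RNA precursor. Box C/D snoRNPs methylate this RNA, box H/ACA snoRNPs convert uridines in it to pseudouridine, and the U3 snoRNP and the small subunit processome fold and cleave it on the way to the small subunit. A separate group of factors builds the large subunit. MAX is the partner that MYC proteins need to bind DNA, with CACGTG as the preferred site, and the genes of this machinery are among the best known MYC targets in many cell types, ESCs included.

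RefSeq promoters (build GRCm38.p6, 250 bases before to 50 after the start) were at hand for 40 of the 46 genes. The motif CACGTG, which reads the same on both strands, was found in 10 of these 40, which is 25.0%, against 8.09% of all 27018 genes with a promoter in that table and 14.5% of the genes of the array that averaged at least 8 (log2). The related motif CACGCG, or CGCGTG on the other strand, was found in 13 of the 40, which is 32.5%, against 10.5% of all genes and 22.6% of those that averaged at least 8. The stretches below belong to genes with the lowest or highest slopes of their role or large differences between media in the results that follow. Among these, genes with 1 promoter and a motif that ends before the start are shown, and capitals mark the motif. *Nhp2*, *Nop16*, *Nop10*, *Ddx21* and *Lyar* hold the related motif only after the start and are not shown. *Grwd1*, *Mybbp1a*, *Pes1*, *Pno1*, *Tsr1*, *Utp20* and *Wdr43* hold CACGTG only after the start. *Imp4* and *Nop2* hold CACGTG, whose first base lies 121 and 60 bases before the start. *Nolc1* and *Ddx56* hold CGCGTG, 25 and 21 bases before the start. *Polr1b*, the gene with the lowest slope, held neither motif in its whole window, and its stretch of 106 bases before the start is shown for comparison. They lie at chr1:34439658-34439763 on the plus strand (*Imp4*), chr6:125131773-125131878 on the plus strand (*Nop2*), chr19:46075772-46075846 on the plus strand (*Nolc1*), chr11:6267730-6267800 on the minus strand (*Ddx56*) and chr2:129100890-129100995 on the plus strand (*Polr1b*).
Imp4: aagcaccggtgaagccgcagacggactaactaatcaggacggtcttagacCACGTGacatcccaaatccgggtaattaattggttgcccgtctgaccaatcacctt
Nop2: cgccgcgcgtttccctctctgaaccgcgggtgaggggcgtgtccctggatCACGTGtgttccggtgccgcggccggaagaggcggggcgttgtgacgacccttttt
Nolc1: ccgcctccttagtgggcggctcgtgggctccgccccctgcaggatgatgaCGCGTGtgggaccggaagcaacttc
Ddx56: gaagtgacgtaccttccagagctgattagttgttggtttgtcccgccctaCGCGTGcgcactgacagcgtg
Polr1b: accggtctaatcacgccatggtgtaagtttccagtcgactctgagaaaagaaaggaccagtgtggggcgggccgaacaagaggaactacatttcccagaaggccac

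A match is a description of these letters and not of binding. The 10 genes with CACGTG had a median slope of -0.084 per day of Dox, and 1 of them fell by the test described below (*Imp4*). The 30 genes with a promoter but no CACGTG had a median slope of -0.124, and 14 of them fell. The difference between these groups was not tested.

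The arrays were first checked against their labels. All 10 ESC markers had a median above 6 (log2), and their summed signal lay between 15.38 and 15.98 (log2) over the 8 arrays in LIF+serum. The summed signal of 10 germ cell markers was 10.7 to 14.81 with Dox in LIF+serum, against 9.63 and 11.08 on the untreated arrays. Of the 10 markers each of primitive endoderm, trophectoderm and fibroblast feeder cells, 3, 4 and 1 had a median above 6, and their sums were highest in LIF+serum at 8 d (11.41, 11.38 and 9.43, against 10.48, 9.87 and 8.37 on the second untreated array). The part of these other cell types in the results was not tested. Array medians were 5.26 to 5.33 in LIF+serum. The probe set of *Max* had log2 values of 5.57 on the first untreated array, 5.07 to 5.6 over the 4 Dox arrays of that set, 5.74 on the second untreated array and 6.2 and 6.19 at 6 and 8 d. No source says if it reads the disrupted gene or the cDNA, which leaves the labels unchecked by it. RNA was taken from whole cultures, so fewer cells of a type and less RNA per cell cannot be told apart. RMA brings arrays to nearly one distribution, so a change in the total RNA of a cell would not show in these values.

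To ask which of the genes changed with days of Dox, limma was used to fit each probe set a slope per day of Dox over the 8 LIF+serum arrays, with a term for the set of arrays. No array held Dox-treated cells without the switched *Max* cDNA, and each set had 1 untreated array for several Dox times. Loss of MAX, Dox itself and days in culture therefore cannot be told apart. The p-values were adjusted over 45037 probe sets, and calls were made at 0.05. Of the 46 genes, 16 fell and 0 rose. Over all probe sets 4.17% fell and 4.77% rose. Over 18193 genes, each read from its brightest probe set, 5.33% fell and 5.75% rose, and over the 5280 genes that averaged at least 8 (log2) 9.79% fell and 5.93% rose. The slopes of the 46 had a median of -0.119 per day (log2) and ranged from -0.305 to 0.041, against a median of -0.009 over all genes. Without adjustment, 31 of the 46 had a p under 0.05, and all 31 had slopes below 0, where 5104 of all 18193 genes and 2059 of the 5280 that averaged at least 8 had such a p in either direction. In all, 41 of the 46 slopes were below 0, against 10206 of all 18193 genes and 2930 of the 5280 that averaged at least 8. Without the second untreated array the fit called 0 of 45037 probe sets. In that fit 19 of the 46 genes had a p under 0.05 before adjustment, each with a slope below 0, and 6139 of the 45037 probe sets had one in either direction. Leaving out any other single array left 6 to 22 genes that fell and 0 that rose. Over these 8 fits, each without 1 array, *Polr1a*, *Polr1b*, *Nolc1*, *Nhp2*, *Noc4l* and *Ddx56* were called in 7, *Imp4* in 6, *Nop56* in 5, *Rrp12* and *Ftsj3* in 4, *Nop16* in 3, *Wdr12*, *Bysl* and *Ddx21* in 2, and *Polr1c* and *Gar1* in 1.

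The genes that fell came from every role. Over all 18193 genes 5.33% fell, and of the 5280 that averaged at least 8 (log2) 9.79% did. Of RNA polymerase I genes 3 of 5 fell, of box C/D and U3 snoRNP genes 2 of 5, of box H/ACA snoRNP genes 2 of 4, of small subunit processome genes 4 of 12, of large subunit assembly genes 4 of 15 and of general nucleolar factors 1 of 5. The median slope of a role ran from -0.083 for box C/D and U3 snoRNP genes to -0.154 for box H/ACA snoRNP genes. The roles were not tested against each other.

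**Figure D1:**
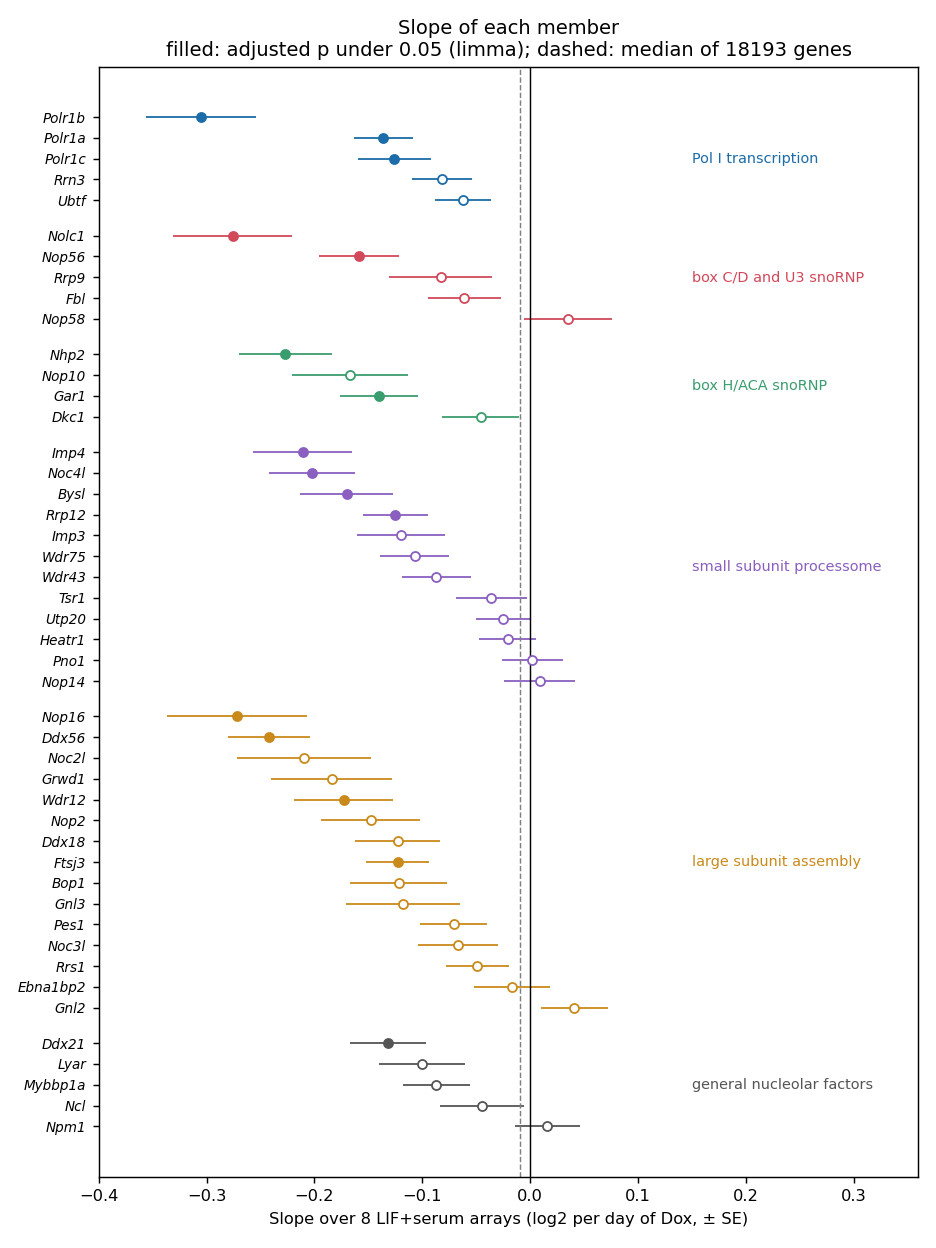
Slope of each of the 46 genes over the 8 LIF+serum arrays (horizontal axis, log2 per day of Dox, with SE), grouped by role. Filled points are the 16 genes with an adjusted p under 0.05 from limma, and all lie left of the dashed line, the median of 18193 genes at -0.009.

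Among the genes of RNA polymerase I, *Polr1b*, which encodes the second largest and partly catalytic subunit, had the lowest slope of all 46 genes. Its log2 value was 10.31 on the first untreated array and 9.16, 9.27, 8.59 and 8.27 at 1, 2, 3 and 4 d of Dox, then 8.43 on the second untreated array and 6.35 and 6.56 at 6 and 8 d. Each Dox array was thus below the untreated array of its own set, but the second untreated array was lower than the arrays at 1 to 3 d, so pooled Dox and untreated values overlapped. *Polr1b* fell by 0.305 per day (log2, SE 0.051, adjusted p = 0.00826 from limma). The fold against the untreated array of the set was 0.243 at 4 d and 0.238 at 6 d. *Polr1b* was also the member that differed most between the untreated arrays, by -1.89 (log2, second minus first).

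*Polr1a*, the largest subunit of the enzyme, was 8.89 on the first untreated array and 8.49, 8.62, 8.41 and 8.35 at 1, 2, 3 and 4 d, and 8.95 on the second untreated array and 7.95 and 7.88 at 6 and 8 d. All 6 Dox values were below both untreated values. *Polr1a* fell by 0.136 per day (SE 0.027, adjusted p = 0.015 from limma). *Polr1c*, a subunit shared with RNA polymerase III, fell as well (slope -0.126, adjusted p = 0.0469 from limma), but of the fits that left out an array only that without 8 d called it, and quantile normalization once more also lost the call. *Ubtf*, which encodes the factor UBF that coats active ribosomal RNA genes, had the highest slope of this role, -0.062 (SE 0.026, adjusted p = 0.19 from limma), and folds of 0.704 at 4 d and 0.765 at 8 d. A second, dimmer probe set of *Ubtf* fell by 0.145 per day (adjusted p = 0.0106 from limma). For *Rrn3*, the initiation factor that recruits the polymerase, the slope was -0.082 (adjusted p = 0.106 from limma).

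In the box C/D and U3 group, *Nolc1*, a chaperone of snoRNPs that binds both classes, was 10.8 on the first untreated array, 10.05, 10.36, 9.0 and 8.95 at 1, 2, 3 and 4 d, 10.92 on the second untreated array and 9.32 and 9.29 at 6 and 8 d. The groups did not overlap, and the values at 3 d and later were all more than 1 below both untreated values. *Nolc1* fell by 0.276 per day (SE 0.055, adjusted p = 0.0158 from limma), and a second probe set of the gene fell by 0.279 (adjusted p = 0.0103 from limma). *Nop56*, a core box C/D protein, was 11.54 on the first untreated array and 11.34, 11.58, 10.98 and 10.84 at 1, 2, 3 and 4 d, and 11.98 on the second untreated array and 10.59 and 10.93 at 6 and 8 d. Its value at 2 d lay above the first untreated value, so the groups overlapped, whereas those at 3 d and later lay below both. *Nop56* fell by 0.159 per day (SE 0.037, adjusted p = 0.0271 from limma).

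*Nop58*, the partner of NOP56 in the same particle, had the highest slope of this group. It was 10.002 on the first untreated array and 10.47, 10.97, 10.75 and 10.7 at 1, 2, 3 and 4 d, but 11.17 on the second untreated array and 11.22 and 11.11 at 6 and 8 d. In the first set all 4 Dox values were above the untreated one, by up to 1.96-fold at 2 d, and in the second set they differed from it by at most 1.04-fold. The slope of *Nop58* was 0.035 (SE 0.041, adjusted p = 0.664 from limma). *Fbl*, the methyltransferase of the particle, had a slope of -0.061 (adjusted p = 0.326 from limma) and *Rrp9*, the U3-specific protein, one of -0.083 (adjusted p = 0.334 from limma).

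Of the box H/ACA proteins, which form a single particle with the pseudouridine synthase dyskerin, *Nhp2* was 12.96 on the first untreated array and 12.53, 12.58, 11.9 and 11.37 at 1, 2, 3 and 4 d, and 12.47 on the second untreated array and 10.98 and 11.16 at 6 and 8 d. The values from 3 d on were all below both untreated arrays, while those at 1 and 2 d lay between them. *Nhp2* fell by 0.227 per day (SE 0.043, adjusted p = 0.0137 from limma), and its second probe set fell by 0.284 (adjusted p = 0.00791 from limma). *Nop10* was 12.3 on the first untreated array and 12.16, 12.12, 11.1 and 10.96 at 1, 2, 3 and 4 d, and 12.4 on the second untreated array and 11.26 and 11.74 at 6 and 8 d. All 6 Dox values were below both untreated values. Its slope of -0.167 (SE 0.054) did not pass the threshold (adjusted p = 0.0896 from limma), and without the array at 8 d it was -0.256 (adjusted p = 0.0166 from limma). *Gar1* fell by 0.14 per day (adjusted p = 0.0413 from limma), and of the fits that left out an array only that without 8 d called it. *Dkc1*, which encodes dyskerin itself, had the highest slope of the group, -0.046 (SE 0.036, adjusted p = 0.5 from limma), and its folds were 1.36 at 1 d, 0.992 at 4 d and 0.696 at 8 d.

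In the small subunit processome, *Imp4*, a protein that pairs the U3 RNA with the precursor, was 10.44 on the first untreated array and 9.95, 9.46, 8.95 and 8.98 at 1, 2, 3 and 4 d, and 9.89 on the second untreated array and 8.52 and 8.78 at 6 and 8 d. Only the value at 1 d lay between the untreated arrays, and all later ones were below both. *Imp4* fell by 0.211 per day (SE 0.046, adjusted p = 0.0225 from limma). Another probe set of *Imp4*, averaging 8.39, had a slope of 0.014 (adjusted p = 0.838 from limma), so the probe sets of this gene disagree. *Noc4l*, the partner of NOP14, was 10.84 on the first untreated array and 9.9, 10.24, 9.86 and 9.52 at 1, 2, 3 and 4 d, and 10.06 on the second untreated array and 8.62 and 8.75 at 6 and 8 d. *Noc4l* fell by 0.202 per day (SE 0.04, adjusted p = 0.0155 from limma), and only its value at 2 d was above an untreated one. *Nop14* itself had the highest slope of this role, 0.009 (SE 0.033, adjusted p = 0.913 from limma), and stayed between 8.72 and 9.34 over all 8 arrays. The other members that fell were *Bysl* (slope -0.17) and *Rrp12* (slope -0.125), while *Heatr1*, *Utp20*, *Tsr1* and *Pno1* had slopes between -0.036 and 0.002.

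In large subunit assembly, *Nop16* was 10.35 on the first untreated array and 9.64, 9.44, 8.5 and 8.19 at 1, 2, 3 and 4 d, and 9.0 on the second untreated array and 7.1 and 7.76 at 6 and 8 d. Within each set every Dox value was below the untreated one, and between sets the untreated values differed by -1.35 (log2, second minus first). *Nop16* fell by 0.272 per day (SE 0.065, adjusted p = 0.0321 from limma), and when its second probe set, which averaged 4.86, was averaged in, the slope was -0.175 (adjusted p = 0.0966 from limma). Its call was also lost without the array at 1, 3, 4 or 6 d or without the second untreated array. *Ddx56*, an RNA helicase, was 10.34 on the first untreated array and 9.46, 9.57, 9.04 and 8.86 at 1, 2, 3 and 4 d, and 9.71 on the second untreated array and 8.1 and 8.13 at 6 and 8 d. The groups did not overlap, and *Ddx56* fell by 0.242 per day with the lowest adjusted p of the 46 genes (SE 0.038, adjusted p = 0.00706 from limma). *Wdr12* and *Ftsj3* also fell (slopes -0.173 and -0.123). WDR12 works in a complex with BOP1 and PES1, whose genes had slopes of -0.122 and -0.071 that did not pass (adjusted p = 0.127 and 0.204 from limma), and at 4 d the 3 genes were 0.397-, 0.454- and 0.602-fold the untreated value. *Gnl2*, a nucleolar GTPase, had the highest slope of all 46 genes, 0.041 (SE 0.031, adjusted p = 0.476 from limma), and its folds were 0.928 at 4 d and 1.46 at 8 d.

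Among the general nucleolar factors, *Ddx21*, an RNA helicase that acts in both transcription and processing, fell by 0.132 per day (SE 0.035, adjusted p = 0.0464 from limma). It was 9.7 on the first untreated array and 9.6, 10.05, 9.23 and 9.29 at 1, 2, 3 and 4 d, and 10.4 on the second untreated array and 9.66 and 9.27 at 6 and 8 d. Its call was lost when any of 6 single arrays was left out, with adjusted p up to 0.463 from limma. *Lyar* had the next lowest slope, -0.1 (SE 0.04, adjusted p = 0.157 from limma), and its folds were 1.48 at 2 d and 0.599 at 6 d. *Npm1*, which encodes nucleophosmin and was the brightest of the 46 genes, had a slope of 0.016 (SE 0.03, adjusted p = 0.801 from limma), with values of 12.75 on the first untreated array, 13.1 to 13.32 with 1 to 4 d of Dox, 13.28 on the untreated array of the other set and 13.37 and 13.26 at 6 and 8 d. For *Ncl*, which encodes nucleolin, the slope was -0.045 (adjusted p = 0.539 from limma).

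**Figure D2:**
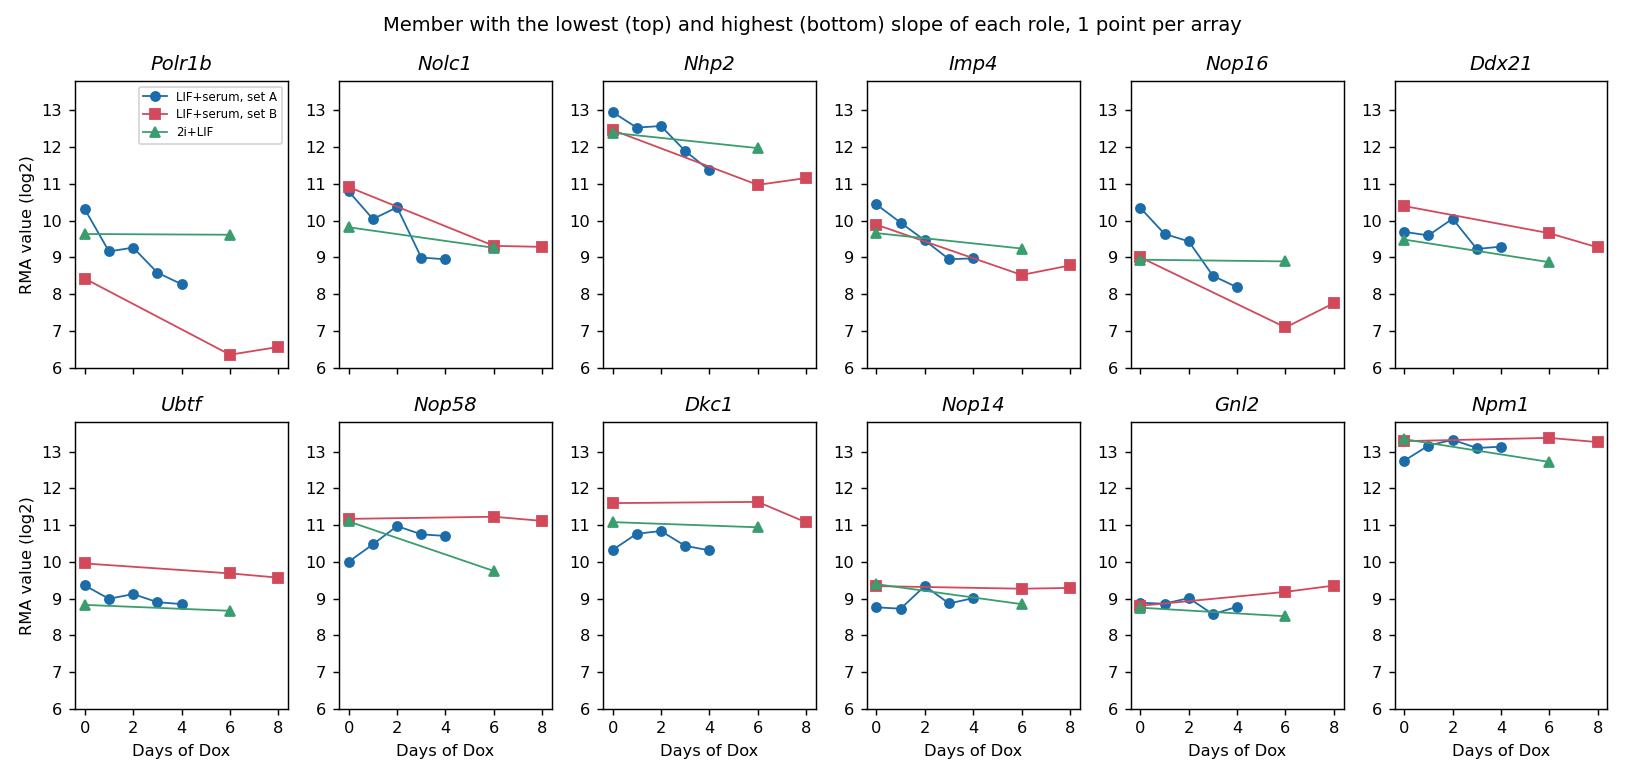
RMA value (vertical axis, log2) against days of Dox for the gene with the lowest slope (top row) and the highest slope (bottom row) in each role, 1 point per array, joined within a set of arrays. In the top row the Dox points of both LIF+serum sets lie below the untreated point of their set for *Polr1b*, *Nolc1*, *Nhp2*, *Imp4* and *Nop16*, whereas *Ddx21* at 2 d lies above it.

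At single times, with 1 array each and therefore no test, genes at least 1.5-fold from the untreated array of their set were counted. At 1 d, 11 of the 46 were lower and 1 was higher (*Gnl3*), where 6.85% of all genes were lower and 8.85% higher. At 2 d, 10 were lower and 2 higher, *Nop58* and *Gnl3* (all genes 10.1% lower and 10.1% higher). Against the mean of both untreated arrays, only 4 were lower at 1 d and 3 at 2 d, and the share of all genes was not counted against that mean. At 3 d, 23 were lower and 1 higher (all genes 12.6% and 13.1%), and at 4 d 26 were lower and 1 higher (all genes 14.6% and 14.6%), *Nop58* at both times. In the second set 28 were lower and 0 higher at 6 d (all genes 15.3% lower and 13.3% higher), and 26 were lower and 0 higher at 8 d (all genes 14.0% lower and 14.1% higher). The median fold of the 46 was 0.82, 0.89, 0.655, 0.614, 0.589 and 0.629 at 1, 2, 3, 4, 6 and 8 d, while that of all genes stayed between 0.933 and 0.974.

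**Figure D3:**
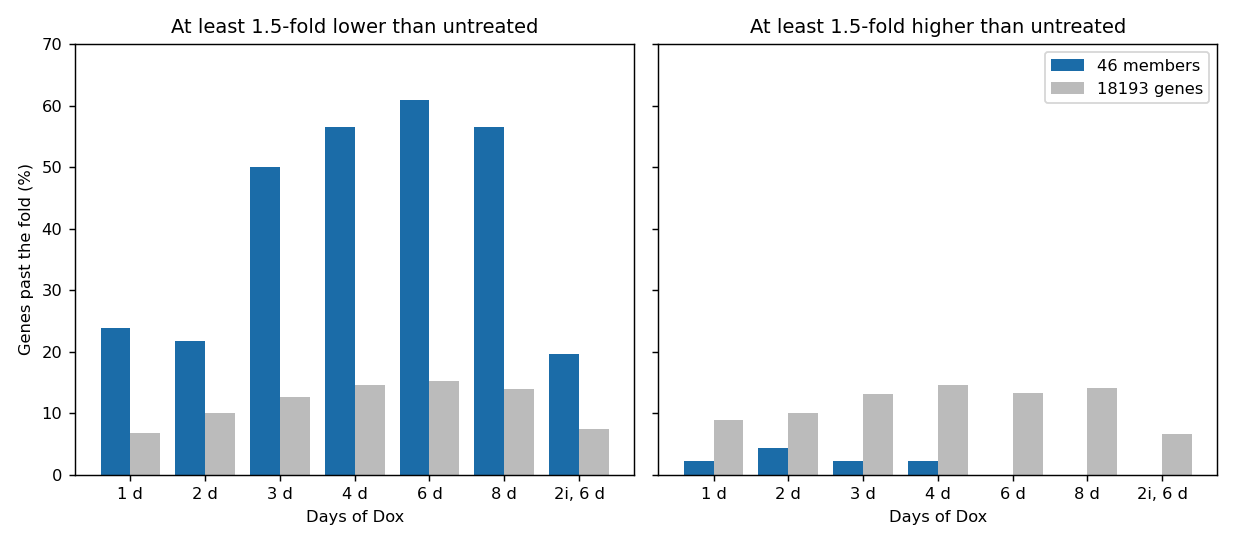
Share of genes (vertical axis, percent) at least 1.5-fold lower (left) or higher (right) than the untreated array of the same set at each Dox time, for the 46 genes and for 18193 genes. From 3 d on in LIF+serum the 46 genes stand above all genes on the left (23 to 28 of 46, against 12.6% to 15.3%), and on the right at most 1 of 46 was higher.

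The values did not move evenly with time. At 2 d, 33 of the 46 genes were above their value at 1 d. Above the untreated value at 2 d were 17, against 7310 of all 18193 genes. Steps between Dox arrays were not counted over all genes. Between 2 and 3 d, 45 of the 46 were lower on the later array, with a median difference of -0.486 (log2), against a median of 0.005 over all genes. The exception was *Rrn3*, at 9.42 and 9.54. The array at 2 d also stood apart in genes outside the 46: the summed signal of the germ cell markers was 12.01, 10.7 and 13.32 (log2) at 1, 2 and 3 d, and *Myc* was 0.496-fold its untreated value at 2 d. Their part in the step was not tested. From 3 to 4 d the median difference was -0.059, and from 6 to 8 d it was 0.127, with 31 genes higher at 8 d. At 3 d and later, 33 of the 46 genes had all 4 Dox values below both untreated values, against 16.6% of all genes. With 1 and 2 d included this held for 12 genes, among them *Polr1a*, *Nolc1*, *Ddx56*, *Nop10* and *Bysl*, against 9.15% of all genes.

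On the early arrays the genes of this machinery lay on both sides of their untreated values. At 1 d the folds ran from 0.451 (*Polr1b*) to 1.77 (*Gnl3*, which encodes nucleostemin, a nucleolar GTPase). *Noc2l*, *Noc4l*, *Bop1*, *Ddx56* and *Rrp9* were between 0.475- and 0.584-fold at 1 d. *Nop58*, *Dkc1*, *Npm1*, *Pno1* and *Ncl* were between 1.25- and 1.39-fold. These folds rest on the first untreated array. At 1 d *Polr1b* and *Rrp9* were above the second untreated array, and *Noc2l*, *Noc4l*, *Bop1* and *Ddx56* were below both. *Nop58*, *Dkc1*, *Npm1* and *Ncl* were below the second untreated array at 1 d, and *Pno1* and *Gnl3* were above both. For *Gnl3* the folds were 1.75 at 2 d, 0.973 at 3 d and 0.48 at 6 d, and the slope was -0.118 (adjusted p = 0.204 from limma). The general nucleolar factors had a median fold of 1.23 at 1 d and 1.47 at 2 d and then 0.819 at 3 d, while RNA polymerase I genes had a median fold of 0.759 at 1 d and 0.717 at 3 d. The second untreated array was above the first by a median of 0.532 (log2) for these general factors and 0.062 for the RNA polymerase I genes.

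**Figure D4:**
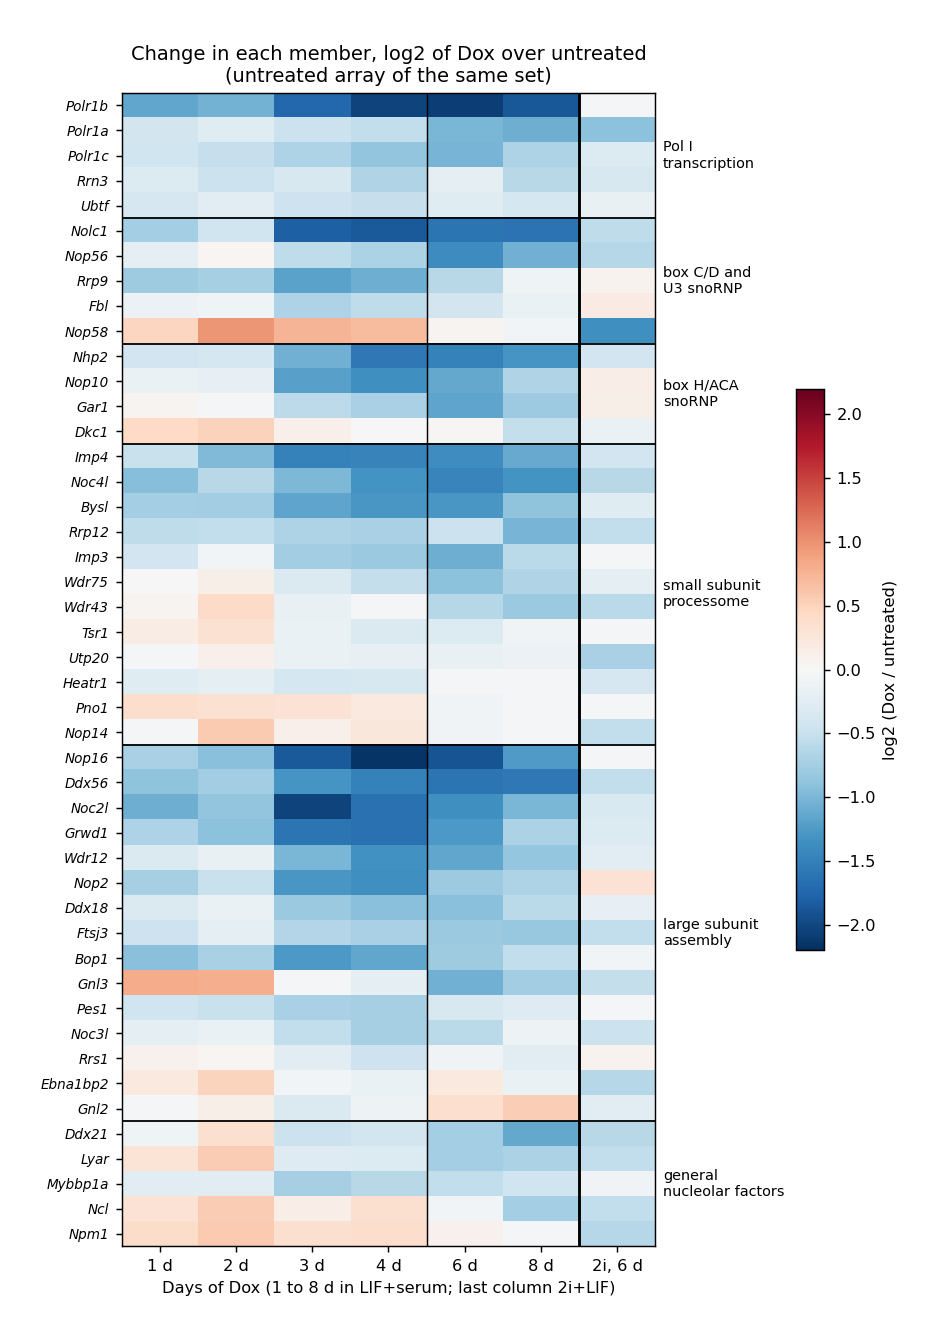
Log2 of Dox over the untreated array of the same set for each of the 46 genes (rows, by role and by slope within a role) at each Dox time (columns, the last in 2i+LIF). Blue is lower with Dox and red is higher, and the step between 2 and 3 d, where 45 of 46 genes were lower, shows as a darker block from 3 d on.

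The sets of arrays were then read side by side. Across the 46 genes, the log2 fold at 4 d, from the first set, and that at 6 d, from the second, had a Pearson r of 0.85 and a Spearman rho of 0.84 (n = 46 genes, which are not independent replicates, and no array was shared). In 40 of the 46 genes the slope was below 0 in each set fitted alone, against 6895 of all 18193 genes. In the first set alone the median slope was -0.169 and 12 genes fell, where 991 of 45037 probe sets fell and 1602 rose. In the second set alone the median was -0.097 and 5 genes fell, where 1159 probe sets fell and 1590 rose. A control of RNA quality differed between the sets. The 3′ probe set of beta-actin exceeded the 5′ one by 0.41 (log2) on the first untreated array and 0.52 to 0.56 with 1 to 4 d of Dox. In the second set it did so by 0.88 for the untreated and 1.46 and 1.22 for the 6 and 8 d arrays. For *Gapdh*, another such control, the same difference was only -0.09 to -0.01 in the first set and 0.05 to 0.12 in the second. The part of RNA quality in the values of the second set was not tested. The untreated arrays also differed from each other by a median of 0.479 (log2, absolute) over the 46 genes, against 0.355 over all genes.

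The 94 probe sets of the 46 genes were compared as a check on the choice of the brightest. Of the others, 38 from 28 genes averaged at least 6 (log2), and 35 of these 38 had a slope of the same sign as the brightest. By the same test 10 of the 38 fell and 0 rose, against 4.17% and 4.77% of all 45037 probe sets. Probe sets of *Imp4*, *Npm1* and *Pes1* had slopes of the opposite sign.

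In 2i+LIF, where the pair of arrays gives no spread of its own, the biogenesis genes had a median fold of 0.8 at 6 d of Dox, against 0.589 at 6 d in LIF+serum. At 6 d of Dox 9 of the 46 were at least 1.5-fold lower and 0 higher, where 7.47% of all genes were lower and 6.66% higher, and with quantile normalization once more 4 were lower. The median over all genes in 2i+LIF was 1.01. Below the untreated value were 40 of the 46, against 8573 of all 18193 genes. The largest differences in slope between media (2i minus LIF+serum) were those of *Polr1b* (0.301), *Nop16* (0.265), *Nop58* (-0.26) and *Nop2* (0.2). *Polr1b* was 9.62 with Dox and 9.64 without in 2i+LIF, and *Nop16* was 8.89 with Dox and 8.94 without. *Nop58*, by contrast, was 9.75 with Dox and 11.1 without, which is 0.393-fold and the lowest fold of the 46 in this medium. *Nop2*, a methyltransferase of the large ribosomal RNA, was 10.17 with Dox and 9.86 without in 2i+LIF, while in LIF+serum it was 10.62 on the first untreated array, 9.33 at 3 d and 9.26 at 4 d. For *Polr1a* the fold at 6 d was 0.537 in 2i+LIF and 0.498 in LIF+serum.

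None of these differences passed the test. In a limma fit over all 10 arrays with a slope of its own in 2i+LIF, which assumes that this pair varies like the arrays in LIF+serum, the difference in slope was called for 0 of the 46 genes and for 0.0% of all probe sets (0 of 45037 by limma, where 4641 had p under 0.05 before adjustment). Among the 46, the unadjusted p was under 0.05 for 1 gene with a lower slope in 2i+LIF (*Nop58*, SE 0.076, adjusted p = 0.268 from limma) and for 3 with a higher one (*Polr1b*, *Gar1* and *Nop2*). For *Polr1b* the adjusted p was 0.302 from limma, and for *Nop16*, whose unadjusted p was not under that level, it was 0.501. The median difference was 0.064 per day over the 46 genes and 0.013 over all genes. A p that misses the threshold does not show that the media act alike. Across the 46 genes, the log2 fold at 6 d in LIF+serum and that at 6 d in 2i+LIF had a Pearson r of -0.11 and a Spearman rho of -0.07 (n = 46 genes, no shared array).

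**Figure D5:**
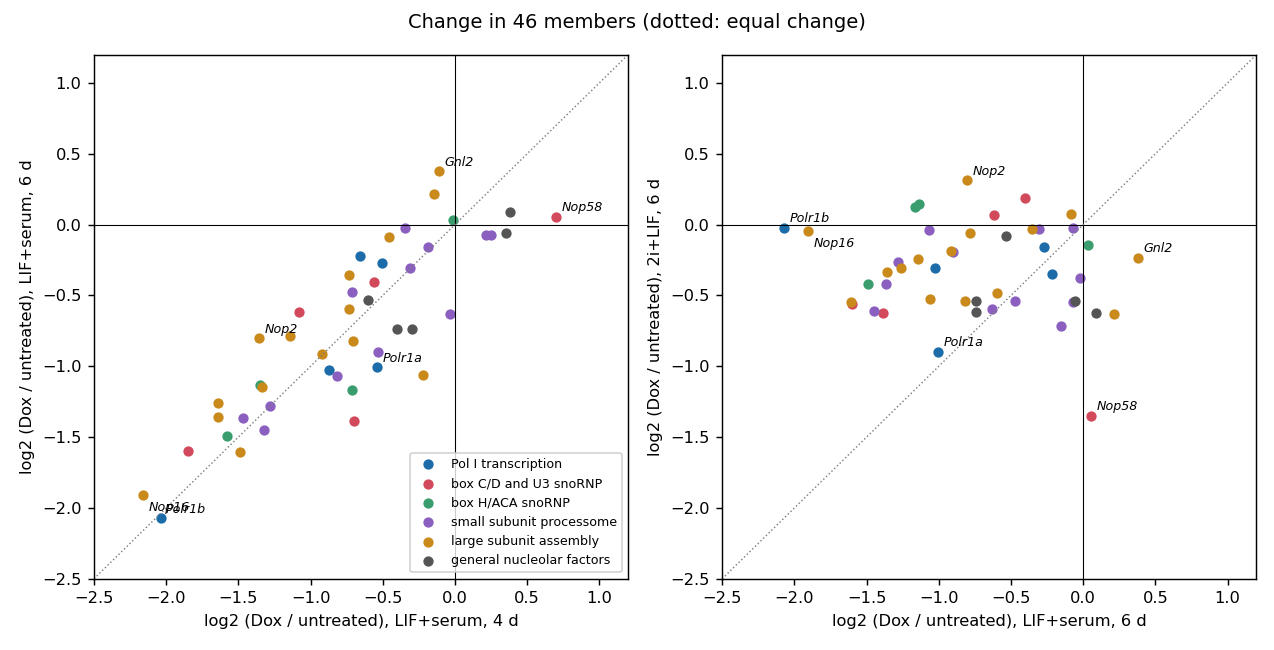
Log2 of Dox over untreated for the 46 genes, each point 1 gene coloured by role. Left, 6 d (vertical) against 4 d (horizontal) in LIF+serum, which lie along the dotted line of equal change (r = 0.85); right, 6 d in 2i+LIF (vertical) against 6 d in LIF+serum (horizontal), which do not (r = -0.11), with *Polr1b* and *Nop16* near 0 and *Nop58* lowest in 2i+LIF.

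Before Dox, the medium itself was compared. Untreated cells in 2i+LIF had lower *Ubtf* than untreated cells in LIF+serum, by -0.768 (log2, adjusted p = 0.0413 from limma), and it was the only one of the 46 genes called, where 12.2% of all probe sets were called in either direction. The 2i+LIF side is 1 array, and the p rests on the spread of the arrays in LIF+serum. Of the 8 fits without 1 LIF+serum array, 6 lost the call of *Ubtf* (adjusted p up to 0.112 from limma). *Ubtf* was 8.83 on the untreated 2i+LIF array, against 9.36 and 9.95 on the untreated LIF+serum arrays. Its second, dimmer probe set was 8.17 on the untreated 2i+LIF array, against 8.15 and 7.87 on the untreated LIF+serum arrays. That probe set was thus not lower in 2i+LIF, and the probe sets of *Ubtf* disagree on this difference. Without adjustment 5 of the 46 were lower and 0 higher, against 3238 and 2352 of all 18193 genes. The median difference was -0.275 over the 46 genes and -0.092 over all genes. Over all probe sets 3259 were lower and 2231 higher in 2i+LIF, but with each array centred on its median 1848 were lower and 3006 higher, since the medians of the 2i+LIF arrays were 5.14 and 5.16. With that centring the difference of *Ubtf* was -0.617 (adjusted p = 0.0837 from limma) and 0 of the 46 were called.

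Further genes of the same pathway were read from lists beside the 46. By the same test 5.33% of all 18193 genes fell and 5.75% rose. Of the 5280 genes that averaged at least 8 (log2) 9.79% fell and 5.93% rose. Of 43 further small subunit factors 11 fell and 0 rose, with *Rrp7a* (slope -0.204, adjusted p = 0.0466 from limma) and *Nob1* (-0.163, adjusted p = 0.038) the lowest and *Esf1* the highest (0.197, adjusted p = 0.162). Of 41 further large subunit factors 10 fell and 0 rose, led by *Zfp593* (-0.252, adjusted p = 0.034 from limma) and *Gnl3l* (-0.229, adjusted p = 0.00362), with *Nol8* highest (0.196, adjusted p = 0.107). Of 9 factors that assemble snoRNPs 2 fell, *Nufip1* and *Tcof1* (slopes -0.135 and -0.126), and of 14 genes of the RNA exosome, which trims the precursor, 2 fell, *Exosc4* and *Dis3* (slopes -0.226 and -0.159). Of 13 further RNA polymerase I factors 0 passed in either direction by limma, and 5 had an unadjusted p under 0.05, against 5104 of all 18193 genes. At 4 d the median folds of these lists were 0.637, 0.657, 0.611, 0.704 and 0.609, against 0.936 over all genes.

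The proteins of the finished ribosome are encoded by another group of genes. Of 48 cytosolic ribosomal protein genes, paralogues included, 2 fell (*Rps27* and *Rpl12*, slopes -0.198 and -0.181) and 0 rose, against 5.33% and 5.75% of all genes. Their median slope was -0.001, and the median of their folds was 0.995 at 4 d, against 0.614 for the biogenesis genes, and 0.98 at 8 d, against 0.629. The ribosomal protein genes were also brighter, with a median level of 13.58 (log2) against 9.92 for the biogenesis genes. The difference between both groups of genes, and the part of their levels in it, were not tested. MYC-family genes were not uniformly lower on the same arrays. *Myc* had a slope of 0.056 (adjusted p = 0.714 from limma), and its folds were 0.496 at 2 d and 1.78 at 3 d. *Mycn* had one of -0.01 (adjusted p = 0.965 from limma). The folds of *Mycn* were uneven, at 2.09 on the 4 d array, 1.76 at 6 d and 0.421 at 8 d. *Mycl*, in contrast, was called higher by limma, with 0.129 as its slope and 0.025 as its adjusted p. Its fold at 8 d was 2.29.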

How the data were processed

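Background subtraction and normalization by RMA in R were done by the authors, who deposited log2 values (RMA and affy in the submitters' processing notes). Which arrays entered 1 normalization is unstated, and RMA shrinks differences of dim probe sets. Of 45101 probe sets, 64 controls were left out. Annotation gave 1 symbol for 34945 probe sets, several for 932 and none for 9160, and genes were named only from the first.

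Slopes were fitted with limma 3.58.1 (R 4.3.3, lmFit and eBayes, 5 residual and 4.81 prior degrees of freedom), with Benjamini-Hochberg adjustment over all probe sets. Folds are differences of log2 values within a set. The main fits of the slope in LIF+serum and of the difference in slope between media were run on simulated data. The other fits were not. In each role the 2 genes with the lowest and the 1 with the highest slope were named, and the 4 with the largest differences between media. Some others are named to show genes outside these. The members and lists were chosen with earlier results of these data known. Python 3.11.15 made counts and plots. The number of arrays limits the precision.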

Additional observations from a re-analysis of the deposited data

How the results depend on the processing

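The 16 genes that fell with days of Dox became 7 when Dox at any time was set against untreated, 5 in the second set of arrays alone, and 0 to 22 when single arrays were left out (0 without the second untreated array and 22 without 8 d), and 0 rose in each of these. The other planned settings gave 12 to 21. Over all probe sets the slopes called 1879 lower and 2150 higher, against 502 and 848 for Dox at any time, 991 and 1602 in the first set alone, 820 and 1120 without 4 d, and 0 without the second untreated array, when 19 of the 46 still had an unadjusted p under 0.05. At 2-fold the genes lower at 1, 2, 3, 4, 6 and 8 d numbered 2, 1, 14, 15, 18 and 11, and 1 in 2i+LIF, against 103, 247, 556, 714, 974, 1027 and 441 of all 18193 genes. Against the mean of both untreated arrays those at least 1.5-fold lower numbered 4 at 1 d and 3 at 2 d, and with quantile normalization once more 4 in 2i+LIF. The share of all genes was not counted for either of these settings.

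Untreated 2i+LIF against LIF+serum called 0 of the 46 with arrays centred on their median and 0 to 3 without single arrays of LIF+serum. Over all probe sets 3259 were lower and 2231 higher, against 1263 and 1561 with quantile normalization and 488 and 619 without the second untreated array. The difference in slope between media was called for 0 of the 46 in every setting, and over all probe sets for 16 lower and 9 higher with trend and robust, 10 and 10 with the mean of probe sets, 33 and 12 without the first untreated array and 170 and 137 without 8 d.

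The sign in each setting was checked only for genes with the lowest or highest slopes of their role or large differences between media. Among these, slopes whose sign turned were all outside the threshold: *Dkc1* (0.032 for Dox at any time, 0.042 with no set term), *Ubtf* (0.012 with no set term), *Gnl2* (-0.050 in the first set alone, -0.028 without the second untreated array), *Nop58* and *Nop14* (-0.003 and -0.008 in the second set alone), and *Nop14* and *Npm1* (-0.002 and -0.003 without the first untreated array, up to 0.055 and 0.048 without the second). Of the other genes, *Ncl* (0.053 in the first set alone) and *Pno1* (-0.008 in the second set alone) also turned. The causes were not tested. No paired analysis was possible because the groups share fewer than 2 replicate numbers, so Dox and untreated arrays were matched by their set, as a term in the fit (15 genes fell without it).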
